A study of Mus musculus with 3 samples.

Results

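The genes described here code for the proteins of the cytosolic ribosome, followed in a hindlimb muscle of mice that lack Mettl21c. Members were the non-control probes whose RefSeq accession, without its version, belonged to a protein-coding gene with a symbol of Rpl or Rps followed by a number, or to Rplp0, Rplp1, Rplp2 or Rpsa. The kinases of the Rps6k family, Rps19bp1 and genes named as pseudogenes were left out. The rule took 177 of 55681 non-control probes, which named 86 of 36638 genes or unnamed transcripts on the array. Of these, 53 genes code for large subunit proteins and 33 for small subunit proteins. Of the 88 genes in the RefSeq table that meet the rule, Rpl37 and Rps27rt had no matching probe and were not analysed here. The symbols Rpl32l, Rpl37rt and Rps23rg1, which read as copies of other members, were taken in by the rule.

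The muscle is labelled SOL and is read here as the soleus, a slow muscle of the calf. It came from male C57BL/6 mice, 8 weeks old, fed regular chow. The KO group had the genotype Mettl21c LacZ/LacZ and the WT group was wildtype. Each group had 3 biological replicates, and each of 3 arrays with 2 colours carried the RNA of 1 WT mouse labelled with Cy3 beside that of 1 KO mouse labelled with Cy5. Mettl21c is an enzyme that methylates lysines of other proteins. The dyes were not exchanged on any array, so a preference of a probe for one dye and an effect of the genotype cannot be told apart.

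Each ribosome joins a small subunit, which reads the messenger RNA, to a large subunit, which forms the peptide bond, and nearly every ribosomal protein is present once per particle. The genes are therefore mostly expressed together and strongly in every tissue, and their messenger RNAs begin with a run of C and T bases through which mTOR signalling and the protein Larp1 control their translation. In muscle the supply of ribosomes is known as a limit on protein synthesis and growth. In a whole muscle, fewer cells of a type and less RNA per cell cannot be told apart.

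The starts below are shown because this run is the feature the genes are best known to share, and because it stands both in genes at the top of the order of ratios and in a gene near its lower end. The RefSeq table of assembly GRCm38.p6 gave 78 annotated starts for 66 of the 86 genes. Each line holds 30 bases, 10 before the annotated start and 20 from it, read 5′ to 3′ on the gene's own strand. Capitals mark the run of at least 6 C or T bases that overlaps the 5 bases before or the 5 bases from the start. Rps9 lies at chr7:3704031-3704060 on the plus strand, Rpl27a at chr7:109519185-109519214 (plus), Rps27 at chr3:90213629-90213658 (minus), Rps10 at chr17:27635225-27635254 (minus), Rpl7a at chr2:26910797-26910826 (plus), Rpsa at chr9:120127756-120127785 (plus) and Rplp0 at chr5:115559457-115559486 (plus).
Rps9: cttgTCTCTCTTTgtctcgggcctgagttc
Rpl27a: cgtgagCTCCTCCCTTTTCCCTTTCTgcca
Rps27: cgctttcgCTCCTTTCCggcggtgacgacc
Rps10: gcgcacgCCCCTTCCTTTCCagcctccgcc
Rpl7a: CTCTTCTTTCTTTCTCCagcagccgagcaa
Rpsa: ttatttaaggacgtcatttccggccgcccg
Rplp0: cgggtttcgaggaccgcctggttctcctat
In Rpl7a the run continues before the printed window and has 21 bases in all. In Rpsa and Rplp0 the longest run at the annotated start was 3 and 4 bases.

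Such a run stood at 35 of the 78 member starts, or 44.9%, against 20.2% of all 32851 starts in the table. A C or T at the start base itself was found at 44.9% of member starts and 30.04% of all starts. In the 250 bases before the start, on either strand, GGAAG stood in 79.5% of member windows against 64.1% of all windows, GGGCGG in 46.2% against 32.7%, TATAAA in 6.41% against 12.4%, and AAGATGGC in 3.85% against 1.56%. The first of these letters is the core of the sites of ETS factors, the second of the sites of Sp1, the third is the TATA box and the fourth the site of YY1. A match of letters is a description of the window. No motif contains another, and a window may hold several.

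The run at the annotated start divided the tested genes without a visible difference in their ratios of KO over WT. Whether the annotated starts are those used in this muscle was not tested. The groups may therefore not separate messenger RNAs with the run from those without it. The median log2 ratio was 0.10 over 28 tested genes with a run at an annotated start, 0.10 over 27 without one and 0.09 over 19 with no start in the table. Relative to genes of similar brightness, a comparison explained below, these medians were 0.09, 0.07 and 0.07. The array measures the amount of messenger RNA and not its translation, which is the step this run is known to govern.

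The targeted transcript, Mettl21c, fell by 2.45 on the log2 scale (limma adjusted p = 0.0170), with ratios of -2.93, -1.96 and -2.46 on arrays 1 to 3. KO was well above background on 1 of 3 arrays, so the size rests on the offset of 50: the mean of Mettl21c was -3.53 with an offset of 16, -5.38 with none and -6.23 on the scanner's processed signals. Without array 3 its adjusted p was 0.0549. With all arrays it was 1 of 3 genes among 7418 tested that passed an adjusted p of 0.05, all of them lower in KO. Of the muscle fibre markers 10 of 12 were well above background, among them Myl3 and Tnnt1 of slow fibres. Between 20.4% and 23.6% of spots were well above background in the WT channel and between 22.5% and 22.9% in the KO channel. How many arrays there are, rather than depth, sets the precision here.

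Array 3 stood apart in how well its spots matched those of the other arrays. The log2 WT signals of arrays 1 and 2 correlated at 0.970 over the spots in grid columns 1 to 88 and at 0.967 from column 89 on. Those of arrays 1 and 3 correlated at 0.932 from column 89 on and at 0.653 in columns 1 to 88. In a corner of the grid within columns 1 to 10 the correlation was 0.065 with every spot in its place, and 0.618 when array 3 was read 1 row further on. There, arrays 1 and 2 correlated at 0.987. The correlation is across spots, which are not independent replicates. How array 3 was read outside that corner was not tested. Of the 74 ribosomal protein genes tested, 35 rested on a probe in columns 1 to 88, where the array 3 value may belong in part to a neighbouring spot, and 39 on a probe in columns from 89 on. The main group results are therefore given with and without array 3. Values of single genes and of the smaller lists are over all 3 arrays, mostly with each array beside them. Tested members named below with a probe in columns 1 to 88 are Rps4x, Rps6, Rps15, Rps15a, Rps27 and Rps29 of the small subunit. Of the large subunit they are Rpl6, Rpl14, Rpl15, Rpl22l1, Rpl23a, Rpl26, Rpl27a, Rpl34, Rpl37a, Rplp0 and Rplp2.

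**Figure D1:**
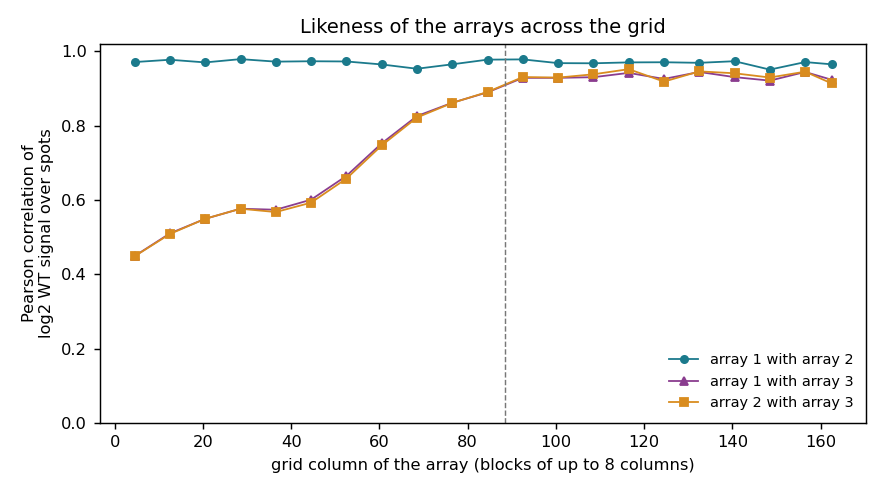
Pearson correlation of the log2 WT signal between pairs of arrays (vertical axis), computed over the spots of each block of up to 8 grid columns (horizontal axis), with a dashed line between columns 88 and 89. The correlation of arrays 1 and 2 stays above 0.95 in every block, while that of arrays 1 and 3 climbs from 0.449 in columns 1 to 8 to 0.929 in columns 89 to 96.

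Most ribosomal protein genes were bright enough to test. To be tested, a probe needed an unflagged spot on each of the 3 arrays and a signal well above background, on each array, in the WT or the KO channel, and a gene was represented by its brightest tested probe. Of the 177 probes 115 were tested, 45 were too dim and 17 had an outlier flag on an array. This gave 74 genes, 44 of the large and 30 of the small subunit. The genes Rpl10l, Rpl35, Rpl36al, Rpl39l, Rpl4, Rpl5, Rpl7l1, Rps21 and Rps23rg1 were not well above background on all arrays in either channel. These 9 include Rpl4 and Rpl5, which every ribosome uses, so their dim probes are no measure of the gene. Rpl41, Rplp1 and Rps18 were bright but had an outlier flag on array 3. Their log2 ratios on arrays 1 and 2 were 0.12 and 0.24 for Rpl41, 0.08 and 0.02 for Rplp1, and -0.21 and 0.13 for the brighter probe of Rps18.

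No ribosomal protein gene passed an adjusted p of 0.05 in limma (0 of 74, beside 0.0404% of all genes tested). At an unadjusted p under 0.05 the count was 13 higher in KO, beside 5.90% of all genes, and 1 lower, beside 7.54%. The count in both directions, 14 of 74 here, was 8 with no background subtraction, 6 with an offset of 0 and 4 with the processed signals, beside 862, 853 and 805 of the 7418 genes. As a group the genes lay slightly above genes of like brightness. The median difference from the 200 other genes nearest in average intensity was 0.09 on the log2 scale, and 59 of the 74 lay above their 200 neighbours' median. The size depended on the array, with median differences of -0.04, 0.08 and 0.23 on arrays 1 to 3 (SD 0.13, n = 3 arrays), and 26, 55 and 59 genes above. Array 1 therefore stood on the other side of 0 from array 3. Over arrays 1 and 2 alone the median difference of the same genes was 0.0093, with 40 of 74 above. Refitted on arrays 1 and 2, 80 ribosomal protein genes could be tested, 46 had a positive mean (57.5%, beside 46.3% of all genes) and 0 passed the adjusted threshold in limma, with 10 higher and 2 lower at an unadjusted p under 0.05.

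The log2 ratios themselves, after loess within each array, had a median of 0.09 over the 74 genes and -0.0028 over all 7418. Array by array the median of the members was -0.06, 0.07 and 0.26 (SD 0.16, n = 3), against -0.01, -0.02 and 0.02 for all genes. A positive mean was found for 55 of the 74, beside 49.1% of all genes. The ratio was positive on all 3 arrays for 23 members, beside 17.5% of all genes, and negative on all 3 for 7, beside 18.3%. By array, 29, 50 and 61 of the 74 were positive. This sign depends on the normalisation. With each array centred on its median and no loess, the ribosomal protein median log2 ratio was -0.67, with -0.45 over all genes. With centring on the tested probes and no loess it was -0.23, with -0.01 over all genes. The ribosomal protein median relative to similar brightness was 0.08 under both of those settings.

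**Figure D2:**
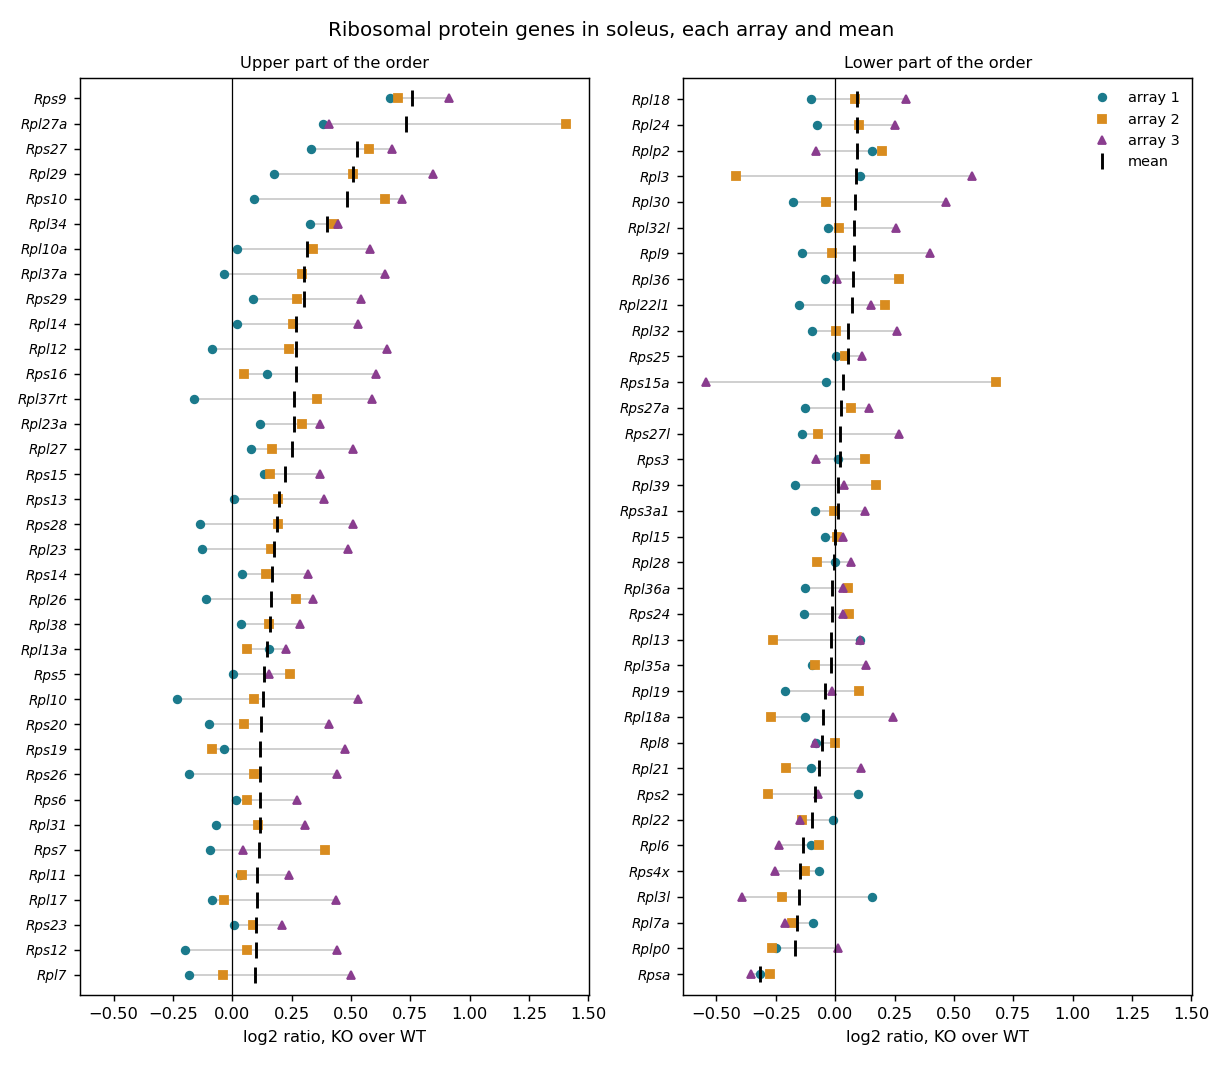
Log2 ratio of KO over WT (horizontal axis) of 71 of the 74 tested ribosomal protein genes (rows, ordered by mean), with circles for array 1, squares for array 2, triangles for array 3, a black bar for the mean and a grey line for the range. Rps9 leads with all 3 arrays above 0.6 and Rpsa ends the order with all 3 below -0.2. Of array 3, 59 triangles lie above 0, and of array 1, 28 circles. Signs are after loess. With each array centred on its median, or on its tested probes, and no loess, most means were negative. On the processed signals 2 of 34 values of named genes had the opposite sign.

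Brightness and ratio went together among these genes. Across the 74 the Pearson correlation of average log2 intensity with mean log2 ratio was 0.68 (Spearman 0.63), and across the 7344 other genes it was 0.11 (Spearman -0.10). Genes share arrays, depth and dyes, so these values describe the libraries. Below an average intensity of 7 the members' median ratio was -0.0063 (17 genes), and that of the others was 0.0073 (4044 genes). From 8 to 9 the medians were 0.10 (13 members) and -0.06 (879 others). From 10 to 11 they were 0.26 (8 members) and 0.14 (235 others), and from 11 upwards 0.48 (9 members) and 0.25 (138 others). The other bright genes thus had positive ratios too, and the comparison with genes of like brightness takes part of that away. At the bright end the match in brightness is loose. Rps9 and Rpl29 had the same reference of 0.24, and 138 other genes lay above an intensity of 11, fewer than the 200 used. With an offset of 0 the bright Rps9, Rpl29 and Rps16 stood at 0.32, 0.17 and 0.02. With centring on the tested probes and no loess, they stood at -0.12, -0.28 and -0.44. Of dim genes, Rps27a and Rpl22l1 then stood at 0.30 and 0.17, and Rpsa, Rpl7a and Rps4x at -0.27, -0.13 and -0.10. The correlation was not computed under these settings. The part of dye and loess in the slope that both sets share was not tested.

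**Figure D3:**
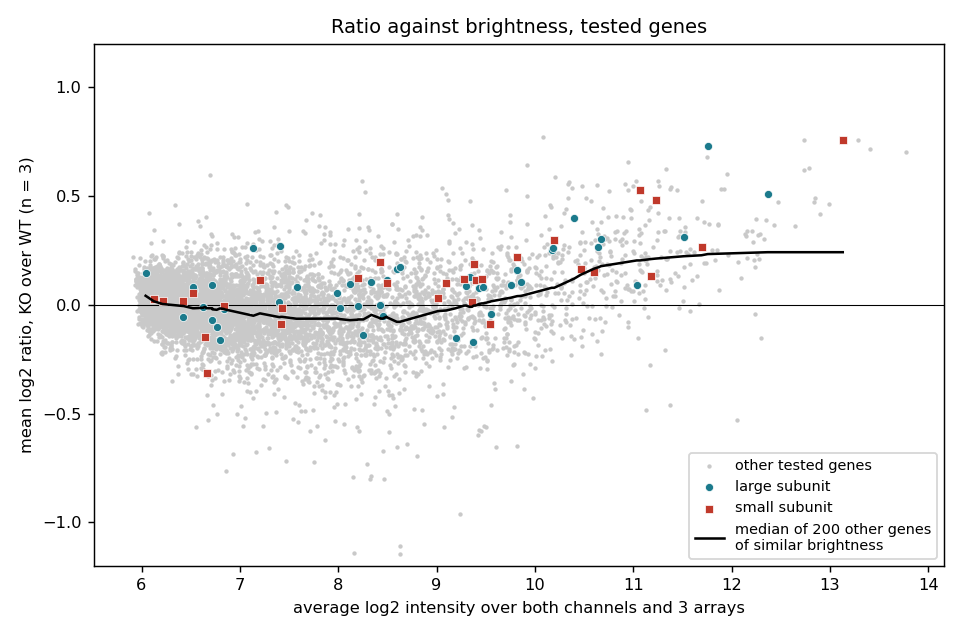
Mean log2 ratio of KO over WT over 3 arrays (vertical axis) against average log2 intensity (horizontal axis) for other tested genes in grey, large subunit genes as circles and small subunit genes as squares, with a black line for the median of the 200 other genes nearest in brightness to each member; 1 other gene lies outside the vertical limits of 1.2. The line rises to 0.24 at the bright end, and 59 of the 74 members lie above it; the height of both depends on loess, the gap between them does not turn with it.

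The members on either side of the grid had medians above 0 on array 3 that differed in size. For the 39 genes with a probe in columns from 89 on, the median log2 ratios were -0.09, 0.05 and 0.39 on arrays 1 to 3. For the 35 genes in columns 1 to 88 they were -0.04, 0.14 and 0.13. Relative to similar brightness the genes in columns from 89 on had medians of -0.05, 0.08 and 0.33, with 34 of 39 above on array 3 and 11 of 39 on array 1. The others had -0.01, 0.10 and 0.11, with 25 of 35 above on array 3. The median on array 3 was larger for the genes in columns from 89 on. In absolute log2 intensity, array 3 departed from the mean of arrays 1 and 2 by a median of 0.35 for these genes. For the genes in columns 1 to 88 it was 0.38. The departure exceeded 1 for 1 of the 39 and 3 of the 35. The sets hold different genes, and the difference between them was not tested. Over arrays 1 and 2 alone the medians relative to similar brightness were -0.02 for the genes in columns from 89 on and 0.05 for the others.

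**Figure D4:**
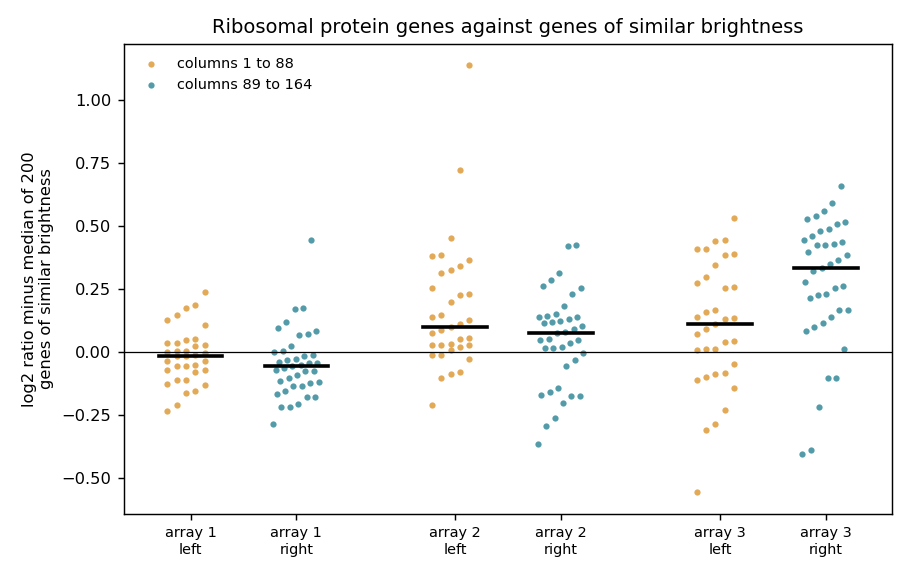
Log2 ratio of each tested ribosomal protein gene minus the median of the 200 other genes of similar brightness (vertical axis), for each array and for probes in grid columns 1 to 88 (left) or from 89 on (right), with a black bar at the median; the sideways position of a point has no meaning. The medians of the right columns run from -0.05 on array 1 to 0.33 on array 3.

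With the array 3 spots of columns 1 to 88 left out, limma called 222 of 7626 genes (2.91%, with 1.44% higher) and 5 of 77 ribosomal protein genes. Rps9 (adjusted p = 0.0022), Rpl29 (0.0340), Rps27 (0.0382) and Rpl27a (0.0389) were higher and Rpsa (0.0340) was lower. Rps27 and Rpl27a rested on arrays 1 and 2 alone in that fit. With only the probes of columns from 89 on, limma called 3 genes, of which Rps9 was 1 (adjusted p = 0.030). Both settings were chosen after seeing the data.

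Among small subunit genes Rps9 stood highest, with log2 ratios of 0.66, 0.70 and 0.91 and a mean of 0.76 (SD 0.13, n = 3, limma adjusted p = 0.0504), which just misses the threshold. The size of the Rps9 mean depended on the offset and the loess span. It was 0.50 with an offset of 16 (limma adjusted p = 0.104) and 0.32 with an offset of 0 (0.482). With no background subtraction it was 0.40 (0.234). A span of 0.1 gave 0.48 (0.140) and a span of 0.7 gave 0.82 (0.0372). Rps9 binds ribosomal RNA early in the assembly of the small subunit. The scanner's processed signals were 101866, 116999 and 128320 in WT and 117252, 129914 and 151584 in KO. KO was above its paired WT on each array, and the ranges of the groups overlapped. On that scale the mean log2 ratio was 0.20. It carries neither the offset nor the loess used here, but Feature Extraction had already dye-normalised it. Its 200 neighbours in brightness had a median of 0.24, so the difference from them was 0.52. Rps9 is the brightest member of the set and has 1 tested probe, in column 161.

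Rps27, which holds a zinc finger, had log2 ratios of 0.33, 0.58 and 0.67 and a mean of 0.53 (SD 0.18, adjusted p = 0.0874). In WT the processed signals of Rps27 were 16661, 18045 and 26029, and in KO 17429, 21211 and 32262, higher in KO on each array with overlapping ranges, and the processed mean log2 ratio was 0.20. The other tested probes of Rps27 had means of 0.10 and 0.0095. Rps10, mutated in some families with Diamond-Blackfan anaemia, had ratios of 0.09, 0.64 and 0.72 and a mean of 0.48 (SD 0.34, adjusted p = 0.178). Its processed signals were 21650, 39670 and 28317 in WT and 21757, 48439 and 33753 in KO, a mean log2 ratio of 0.18. Array 1 was near 0 for Rps10 and arrays 2 and 3 were high.

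Rps29, another anaemia gene, had ratios of 0.09, 0.27 and 0.54 and a mean of 0.30 (SD 0.23, adjusted p = 0.266). Its other tested probe had a mean of 0.32, close to the first. Rps16 had 0.15, 0.05 and 0.61, with a mean of 0.27 (SD 0.30), and its other tested probes had means of 0.18 and -0.15. Rps6, the ribosomal target of S6 kinase, stood at 0.02, 0.06 and 0.27, with a mean of 0.12 (SD 0.14), and its dimmer tested probe at -0.08. Without array 3 the mean of Rps6 was 0.04.

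At the lower end Rpsa, a small subunit protein also known as the laminin receptor, had log2 ratios of -0.32, -0.27 and -0.35 and a mean of -0.32 (SD 0.04, adjusted p = 0.126). The processed signals were 882, 948 and 1060 in WT and 587, 515 and 548 in KO, so the groups did not overlap. The mean of Rpsa was -0.62 with an offset of 0 in place of 50, and -0.81 on the processed scale. That scale also differs in its background and was dye-normalised by Feature Extraction in place of the loess used here. The probes of Rpsa gave different values. A second tested probe had ratios of -0.17, 0.08 and 0.07, and the brightest probe, left out for an outlier flag on array 2, had 0.18 on array 1 and -0.19 on array 3. With flagged spots kept, that brightest probe represents the gene and the value is 0.0023, and without array 2 it is -0.0049. Rps4x, the X-linked form of its protein, stood at -0.07, -0.13 and -0.25 (mean -0.15, SD 0.09), and its other tested probe at -0.03.

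Rps15a varied most, with ratios of -0.04, 0.68 and -0.54 (mean 0.03, SD 0.61). Its processed signals were 15309, 15093 and 1350 in WT and 14249, 22061 and 2032 in KO. The spot lies in column 13 of the grid, and on array 3 both channels were far below the other arrays. No direction can be read for Rps15a from these values.

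Among large subunit genes Rpl27a had the highest mean, 0.73, from log2 ratios of 0.38, 1.41 and 0.41 (SD 0.58, adjusted p = 0.188). Its processed signals were 17141, 175789 and 28680 in WT and 18182, 234216 and 33690 in KO, a mean log2 ratio of 0.24. On array 2 both channels of this spot were far brighter than on the other arrays, and without array 2 the mean was 0.40. A second probe of Rpl27a, flagged on array 3, had ratios of 0.11 and -0.03 on arrays 1 and 2. Rpl29 had ratios of 0.18, 0.51 and 0.85 and a mean of 0.51 (SD 0.34, adjusted p = 0.158). Its processed signals were 82692, 74229 and 83316 in WT and 77888, 83479 and 114442 in KO, so KO was below WT on array 1 and above it on arrays 2 and 3, with a mean log2 ratio of 0.18. The other tested probes of Rpl29 had means of -0.05 and 0.21.

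Rpl34 was the most even of the high large subunit genes, at 0.33, 0.43 and 0.44 (mean 0.40, SD 0.06, adjusted p = 0.0874). Rpl34 had processed signals of 12532, 14286 and 18930 in WT and 13502, 17001 and 22353 in KO, higher in KO on each array with overlapping ranges and a mean log2 ratio of 0.20. The dimmer tested probe of Rpl34 had a mean of 0.12. The retrogene-like Rpl37rt had -0.16, 0.36 and 0.59 (mean 0.26, SD 0.38), with array 1 below 0 and the others above.

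Rpl7a was low on each array, at -0.09, -0.18 and -0.21 (mean -0.16, SD 0.06, adjusted p = 0.373), and its processed mean was -0.43. The WT signals of Rpl7a were 419, 733 and 1728 and the KO signals 390, 448 and 1249, lower in KO on each array with overlapping ranges. Rpl6 stood at -0.10, -0.07 and -0.24 (mean -0.14, SD 0.09), while its other tested probes had means of -0.03 and 0.06. Rpl15, a core protein of the subunit, stood at -0.04, 0.0085 and 0.03, with a mean of 0.0002 (SD 0.04).

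Rpl3, which reaches to the peptidyl transferase centre, and Rpl3l, the form that takes its place in striated muscle, can be set side by side. Rpl3 had ratios of 0.10, -0.42 and 0.58 (mean 0.09, SD 0.50) and Rpl3l had 0.15, -0.22 and -0.39 (mean -0.15, SD 0.28, adjusted p = 0.612). Both probes lie in columns from 89 on. The pair moved to opposite sides of 0 on array 3 and lay on the same side on arrays 1 and 2. Neither mean exceeds its spread between arrays. The processed signals of Rpl3l were 7527, 9594 and 10880 in WT and 8811, 8815 and 8097 in KO. Both ranges overlapped.

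The P stalk, which recruits the translation factors with GTPase activity, had 3 of its 4 listed genes tested, with a median log2 ratio of 0.09 and of -0.11 relative to similar brightness. Rplp0, the base of the stalk, stood at -0.25, -0.27 and 0.01 (mean -0.17, SD 0.16, adjusted p = 0.435), and its dimmer tested probe had a mean of -0.14. Rplp0 had processed signals of 8581, 9490 and 11987 in WT and 7702, 8834 and 11001 in KO, lower in KO on each array. Rplp2 stood at 0.16, 0.20 and -0.08 (mean 0.09, SD 0.15), below its neighbours in brightness by a difference of -0.11, and its mean was -0.15 on the processed scale. Rpl12 stood at -0.09, 0.24 and 0.65 (mean 0.27, SD 0.37). The stalk genes thus took different signs on every array.

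Of the particle that Rpl5 and Rpl11 form with 5S ribosomal RNA, which restrains Mdm2 when free, Rpl11 was tested and stood at 0.03, 0.04 and 0.24 (mean 0.11, SD 0.12). Of 8 listed genes around the peptide exit site 7 were tested, with a median of 0.10 and array medians of -0.09, 0.11 and 0.31. Rpl23a, a docking site for factors that meet the nascent chain, stood at 0.12, 0.30 and 0.37 (mean 0.26, SD 0.13, adjusted p = 0.228). Rpl26 stood at -0.11, 0.27 and 0.34 (mean 0.17, SD 0.24), and its other tested probes at 0.07 and -0.05. Of 16 listed Diamond-Blackfan anaemia genes 14 were tested, with a median of 0.12 and array medians of -0.09, 0.09 and 0.32. Of these 3 were higher at an unadjusted p under 0.05 and 0 lower, beside 5.90% and 7.54% of all genes.

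Of 8 listed paralogs 3 were tested, with a median of 0.02. Rpl22l1, a paralog of Rpl22, stood at -0.15, 0.21 and 0.15 (mean 0.07, SD 0.19). Rps27a, whose protein is made as a fusion with ubiquitin, stood at -0.13, 0.07 and 0.14 (mean 0.03, SD 0.14) on a dim tested probe. A brighter probe of Rps27a was well above background on 2 of 3 arrays and had a mean of 0.19. Outside the naming rule, the small subunit protein Rack1 stood at -0.02, -0.11 and 0.37 (mean 0.08, SD 0.25). Fau, whose protein is fused to a ubiquitin-like one, was not tested. The signs of these means are after loess. With each array centred on its median and no loess, those of Rpl22l1, Rps27a and Rack1 were negative. With centring on the tested probes and no loess, Rpl22l1 stood at 0.17, Rps27a at 0.30 (limma adjusted p = 0.0403) and Rack1 at -0.23.

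The subunits had similar medians. The 44 large subunit genes had a median of 0.09 and array medians of -0.08, 0.07 and 0.26 (SD 0.17, n = 3), and the 30 small subunit genes 0.12 and array medians of -0.02, 0.08 and 0.24 (SD 0.13). Relative to similar brightness the medians were 0.09 and 0.07. In both, array 1 lay below 0 and array 3 above. The genes at an unadjusted p under 0.05 that have not been given above, named after their values were seen, were Rpl10a at a mean of 0.31, Rpl37a at 0.30, Rpl14 at 0.27, Rpl27 at 0.25 and Rps15 at 0.22.

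Probes of the same gene often gave different values. Of 31 genes with several tested probes, 10 had means of opposite sign, and the median spread between the highest and lowest probe was 0.10. It was over 0.3 for Rpl29, Rps27, Rps16 and Rpsa. The brightest probe had a higher ratio than the dimmest in 17 of the 31. Ribosomal protein genes have many near-identical retrocopies in the genome, and how far a probe also reads a copy, or another transcript form, was not tested. Probe sequences were not analysed here.

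**Figure D5:**
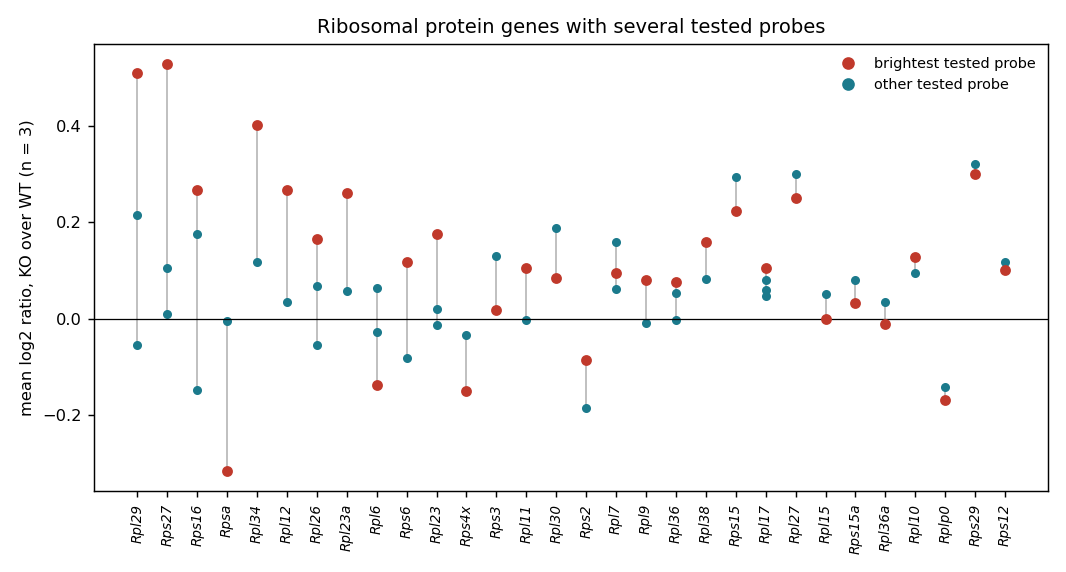
Mean log2 ratio of KO over WT over 3 arrays (vertical axis) of every tested probe of 30 of the 31 ribosomal protein genes with several, ordered by spread, with the brightest tested probe of each gene in red and the others in blue. The widest spread is that of Rpl29, from -0.05 to 0.51, and the red point is the upper one in 3 of the 4 genes with a spread over 0.3; signs are after loess.

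Over the 3 arrays, other genes of protein synthesis had medians nearer 0 than the members. Over arrays 1 and 2 alone the members' median relative to similar brightness was 0.0093, so that contrast rests on array 3. Of 40 listed translation factors 27 were tested, with a median log2 ratio of 0.01 and array medians of -0.09, -0.02 and 0.06, and 0.0027 relative to similar brightness. At an unadjusted p under 0.05 there was 1 higher, beside 5.90% of all genes, and 4 lower, beside 7.54%, and 0 passed the adjusted threshold in limma. Eif3c and Eif3i, subunits of the factor that binds the small subunit, stood at 0.34 (SD 0.24) and -0.35 (SD 0.14). Of 46 listed genes of ribosome biogenesis 26 were tested, with a median of -0.06 and -0.03 relative to similar brightness, with 1 higher and 2 lower at an unadjusted p under 0.05, beside the same 5.90% and 7.54%. Ubtf, which activates transcription of ribosomal DNA, stood at 0.32 (SD 0.16), and Ncl, the nucleolar protein nucleolin, at -0.48 (SD 0.42). Array medians of the biogenesis list were -0.02, -0.04 and -0.01. Of 19 listed regulators 9 were tested, with a median of -0.0030 and array medians of 0.09, -0.03 and -0.05. Maf1, the repressor of RNA polymerase III, stood at -0.31 (SD 0.14) and Akt1 at -0.15 (SD 0.23). The difference between these lists and the members was not tested.

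Markers of other cells also differed in their values. Medians below are over the tested markers. Each sum is instead over all probes of all listed markers on the array, tested or not, with dim and flagged spots included. The 7 tested macrophage and leukocyte markers of 10 listed had a median of -0.23, with summed processed signals of 7988 to 16288 in WT and 7229 to 11222 in KO. The 3 tested red blood cell markers of 8 had a median of 0.21, with sums of 32866 to 53939 in WT and 77814 to 129847 in KO, which did not overlap. Array 3 held both the lowest WT and the highest KO sum of red blood cell markers. The median ratios of the 3 tested red blood cell markers were 0.38, 0.06 and 0.30 on arrays 1 to 3. Those of the ribosomal protein genes were -0.06, 0.07 and 0.26. Of the 3 tested red blood cell markers, Hba-a1 and Alas2 have their probes in columns 1 to 88. On arrays 1 and 2 alone the sums were 44599 and 53939 in WT and 78443 and 77814 in KO, which did not overlap either. The 9 tested muscle fibre markers of 12 had a median of 0.16, with sums of 368998 to 488845 in WT and 406203 to 426794 in KO. The 5 tested adipocyte markers had a median of 0.13, with sums of 5025 to 7900 in WT and 8121 to 8807 in KO, which did not overlap either. The 3 fibroblast, 4 endothelial and 2 Schwann cell markers tested had medians of 0.01, -0.06 and -0.07. The part of these cells in the ribosomal protein values was not tested.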

How the data were processed

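Total RNA of SOL muscle was labelled with Cy3 (WT) or Cy5 (KO) and hybridised to 3 arrays, per the labels' protocols. The deposited scanner files hold spot intensity, local background, flags and a processed signal that Feature Extraction had background-subtracted and dye-normalised, per the file headers. The headers give its version as 12.0.3.1, whereas 11.5 stands in the submitters' processing notes. The authors also deposited log10 ratios of KO over WT, which were not used for any value here. The genome build is not given in the sources used here. There are no counts, so the number of arrays, and signal over background, limit the precision. Replicates are biological per the labels.

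Ratios were computed from median spot intensities with normexp background correction (offset 50) and loess within arrays (span 0.3) in limma 3.58.1 under R 4.3.3, where data.table (release 1.17.8) did the reading. Control and outlier-flagged spots had weight 0, flagged spots (536, 572 and 1002 on arrays 1 to 3) were left out, and spots of a probe were averaged. Ratios of dim probes come out smaller with an offset. Those of bright members after loess moved with it too. Rpl29 stood at 0.51 with the offset of 50 and at 0.17 with an offset of 0, and Rps10 at 0.48 and 0.28. Probes were named through RefSeq of assembly GRCm38.p6, and 28658 of 29472 probes with a RefSeq accession matched. The mean ratio was tested against 0 with lmFit and eBayes over all 7418 genes, with Benjamini-Hochberg adjustment and a threshold of 0.05 in both directions. Each SD is over the arrays. The pairing of 1 KO with 1 WT sample comes from the shared array. Each member was also set against the 200 other tested genes nearest in average intensity.

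Named genes were those past the threshold, the 6 highest and 6 lowest means, the 4 smallest and 4 largest SDs, a fixed set that holds Mettl21c, Rps6, Rpsa and Rplp0 among others, members with tested probes over 0.3 apart, and the 2 of smallest p in each related list. Some genes that the rule names are not reported here. The members, the lists and the tests were chosen with earlier results of these data known, so the lists lend no independent support. The alternatives changed the background, the normalisation, the filters, the probe rule, the moderation, the arrays and, added after seeing the data, the grid columns of array 3. The steps were tested on simulated arrays.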

Additional observations from a re-analysis of the deposited data

How the results depend on the processing

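The median of the ribosomal protein genes relative to genes of similar brightness was positive under each setting that refitted the data, from 0.034 without array 3, where 80 genes were tested, to 0.15 with the processed signals. For the 74 genes of the report, over arrays 1 and 2 alone, it was 0.0093, and -0.02 for the 39 of them in columns from 89 on. Over 23 settings, 770 values of named genes gave 668 with the same direction and call, 66 with the opposite sign, past the threshold or not, 31 with the same sign and newly past the threshold, and 5 with the same sign and no longer past it. All 5 of the last are Mettl21c, at adjusted p values of 0.0680 (processed signals), 0.173 (no filter on dim probes), 0.528 (robust moderation), 0.874 (6 channels as samples) and 0.0549 (without array 3).

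The step that mattered most was loess. With each array centred on its median and no loess, limma called 4919 genes in the comparison of all genes KO over WT and 64 ribosomal protein genes, with medians of -0.67 over the tested ribosomal protein genes, -0.67 in the large and -0.67 in the small subunit. The opposite sign was then found for Rps9 -0.56, Rpl27a -0.44, Rps27 -0.55, Rpl29 -0.71, Rps10 -0.62, Rpl34 -0.60, Rpl15 -0.74, Rps15a -0.78, Rpl3 -0.78, Rpl37rt -0.71, Rps6 -0.76, Rplp2 -0.98, Rps27a -0.13, Rack1 -0.67, Rps16 -0.88, Eif3c -0.78, Ubtf -0.43, Rpl22l1 -0.27, Rpl12 -0.76, Rpl11 -0.83, Rpl23a -0.26, Rpl26 -0.60, Rps29 -0.67. With centring on the tested probes 2656 genes and 24 ribosomal protein genes were called, with medians of -0.23, -0.23 and -0.23, and the opposite sign was found for Rps9 -0.12, Rpl27a -0.0049, Rps27 -0.11, Rpl29 -0.28, Rps10 -0.18, Rpl34 -0.16, Rpl15 -0.30, Rps15a -0.34, Rpl3 -0.34, Rpl37rt -0.27, Rps6 -0.32, Rplp2 -0.54, Rack1 -0.23, Rps16 -0.44, Eif3c -0.34, Rpl12 -0.32, Rpl11 -0.39, Rpl26 -0.16, Rps29 -0.23. With loess on spots well above background the opposite sign was found for Rps15a -0.0019, Rplp2 -0.11, Rps16 -0.0058, and with a span of 0.1 for Rps15a -0.0031, Rplp2 -0.051. A span of 0.7 called 8 genes and 1 ribosomal protein gene, Rps9.

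No background subtraction gave 5 calls over all genes, an offset of 16 gave 25 and an offset of 0 gave 1. The opposite signs were Rps15a -0.024, Rplp2 -0.055 with no subtraction, Rps15a -0.039, Rplp2 -0.0075 with the offset of 16 and Rps15a -0.085, Rplp2 -0.084 with that of 0. The processed signals gave 0 calls, with opposite signs for Rplp2 -0.15, Rps27a -0.021. Calls over all genes numbered 0 with no filter on dim probes, with both channels required and with robust moderation, and 1 with each probe tested, with probes of a gene averaged, with loess on spots well above background, with a span of 0.1 and with outlier spots kept, where the sign turned for Rpsa 0.0023. Array weights called 63 genes and 2 ribosomal protein genes, Rps9 and Rps27, with opposite signs for Rpl15 -0.0045, Rpl3 -0.054. The pairing of samples on an array was dropped in the fit of 6 channels as samples with no replicate block, which called 0 genes and 0 ribosomal protein genes.

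Leaving out 1 array in turn gave 0 to 16 calls over all genes and 0 to 1 among ribosomal protein genes, the 1 being Rps9 without array 2 (adjusted p = 0.0283). Their median was 0.18, 0.11 and 0.04 without arrays 1, 2 and 3. Opposite signs were Rpl15 -0.0039, Rps15a -0.29, Rpl22l1 -0.00094 without array 2 and Rpl15 -0.017, Rpl3 -0.16, Rack1 -0.068 without array 3. Over the 3 omissions the values ranged from -0.017 to 0.021 for Rpl15, -0.29 to 0.32 for Rps15a, -0.16 to 0.34 for Rpl3, -0.00094 to 0.18 for Rpl22l1 and -0.07 to 0.17 for Rack1.

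Chosen after seeing the data, leaving out columns 1 to 88 of array 3 gave 222 calls and 5 among ribosomal protein genes, with Rpl15 -0.017, and the other columns alone gave 1, Rps9, with Rps6 -0.12. The cause of these differences was not tested. Of the 12 untested genes, 9 were limited by signal over background.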
